A study of Mus musculus with 6 samples.

Results

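The Wnt pathway genes described here are 52 genes for Wnt ligands, their receptors, their secreted modulators and the proteins that carry the signal inside the cell. They were taken by gene symbol from a table of 34714 genes, all 52 symbols were found in it, and all 52 passed the filter on low counts that left 18927 genes for testing. Gene expression was measured by bulk RNA sequencing in obstructed mouse kidneys, in 3 libraries of mice lacking the microRNA gene Mir92b in all cells (a global knockout) and in 3 libraries of wild-type mice. Per the labels, the knockout strain was C57BL/6JGpt- Mir-92bem22Cd549/Gpt and the wild type was C57BL/6J, and all mice were male. Both groups had unilateral ureteral obstruction, in which the left ureter is tied off, at 8 weeks of age, and the kidneys were collected 10 days later. The obstruction of both groups is taken from the treatment label of each sample, while the protocol text describes the ligated kidneys as nonfibrotic controls, and this conflict could not be settled. The labels do not say whether the mice were littermates or whether each replicate is a separate animal, so the p-values may measure a technical spread. Sham-operated kidneys were not analysed here. Mir92b itself was not analysed here either, so the deletion was not checked against the labels.

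Wnt ligands are secreted lipid-modified proteins that bind Frizzled receptors together with the coreceptors Lrp5 or Lrp6. In the canonical branch this stops a destruction complex of Axin, Apc and Gsk3b from breaking down beta-catenin, which then enters the nucleus and works with TCF/LEF factors. Wnt signalling builds the nephron in the embryo, is low in the adult kidney, and is known to become active again in kidneys scarred by obstruction. The genes were grouped as 12 ligands and secretion factors, 18 receptors, coreceptors and regulators of their turnover, 10 secreted modulators and 12 intracellular genes.

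The deleted microRNA gene gives miR-92b-3p, which recognises its targets through its seed, bases 2 to 8. Other mouse microRNAs, made from other genes, carry the same seed. Their mature sequences (RefSeq, GRCm38.p6, 5′ to 3′, seed in capitals) are shown because the target letters searched below are those of the whole family.
miR-92b-3p: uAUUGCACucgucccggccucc
miR-92a-3p: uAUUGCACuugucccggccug
miR-25-3p: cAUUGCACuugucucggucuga
miR-32-5p: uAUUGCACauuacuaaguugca
miR-363-3p: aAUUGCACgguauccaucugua
miR-367-3p: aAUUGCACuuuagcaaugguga

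The longest annotated 3′ UTR of each gene (GENCODE M21, GRCm38) was searched on the transcript strand for 3 kinds of seed match, the 8mer GTGCAATA, the 7mer-m8 GTGCAAT and the 7mer-A1 TGCAATA, where matches inside an 8mer were not counted again. Of the 52 Wnt genes, 6 held a match (11.5%), against 2057 of the 15384 tested genes with a 3′ UTR (13.4%). The median 3′ UTR was 1721 nt among the Wnt genes and 1114 nt among all tested genes. The 2 genes with an 8mer were Dkk2 and Dkk3, members of the Dickkopf family of secreted proteins. Their sites and the 7mer sites of the other 4 genes are shown with up to 11 flanking bases on each side, the match in capitals.
Dkk3 8mer, minus strand, chr7:112118163-112118192: cactggtagatGTGCAATAgaaatggctaa
Dkk2 8mer, plus strand, chr3:132178908-132178937: ccattaatcatGTGCAATAcaagcacaggg
Dkk2 7mer-m8, plus strand, chr3:132179258-132179286: aggtaagctggGTGCAATgcagcctgccc
Wnt5a 7mer-m8, plus strand, chr14:28526078-28526106: ccctgtgtgatGTGCAATtaatagaaggc
Kremen1 7mer-A1, minus strand, chr11:5194611-5194639: tctttacagttTGCAATAgagccagactg
Fzd7 7mer-A1, plus strand, chr1:59486435-59486463: ctttttttcccTGCAATAgaagtctggtt
Sfrp4 7mer-A1, plus strand, chr13:19631709-19631737: ttttacacgacTGCAATAattttattctt

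A match is a run of letters and not a shown site of binding. The log2 fold changes (knockout over wild type) of these 6 genes were 1.18 for Sfrp4, 0.51 for Kremen1, 0.50 for Dkk3, 0.33 for Fzd7, 0.10 for Wnt5a and 0.04 for Dkk2, so the 2 genes with an 8mer stood apart from each other. Sfrp4 was at 0.15 without replicate 3 of both groups. Their median was 0.42, against 0.18 for the Wnt genes with no match. The same medians over the 15384 tested genes with a 3′ UTR were 0.08 with a match and 0.0 without one. Genes with and without a match were not matched for length, and these differences were not tested. Fzd1, Lrp5 and Sfrp1, which led the comparison below by p, held none of these matches.

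The library totals ranged from 44476507 to 50769801 counts in the knockout and from 38738204 to 51932509 in the wild type. Levels are given as CPM, counts divided by the TMM-scaled library size in units of 1000000 counts, and 3 counts corresponded to at most 0.0706 CPM. Kidney markers were present in every library. The summed level of 6 proximal tubule markers was 3399, 2261 and 1058 CPM in the knockout and 1976, 2368 and 4636 CPM in the wild type. The 12 fibroblast and myofibroblast markers summed to 2627, 4978 and 7718 CPM in the knockout and to 4366, 2741 and 1984 CPM in the wild type. The libraries of knockout replicate 3 and wild-type replicate 3 thus lay at opposite ends of both lists, and several results, though not all, are given with and without them. The 6 macrophage and monocyte markers summed to 1331, 1567 and 1618 CPM in the knockout and to 1055, 1159 and 1152 CPM in the wild type, without overlap. The 8 collecting duct markers summed to 406, 343 and 211 CPM in the knockout and to 355, 476 and 468 CPM in the wild type. In bulk tissue, fewer cells of a type and less RNA per cell cannot be told apart.

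The knockout and wild-type kidneys were compared to see how these genes stood in the obstructed kidney without Mir92b. The receptor Fzd1, the secreted inhibitor Sfrp1 and the coreceptor Lrp5 stood out as higher in all 3 knockout libraries, at 1.80-fold, 2.08-fold and 1.69-fold. The groups overlapped for all 12 ligands and secretion factors and for 10 of the 12 intracellular genes. Among all genes 16.1% did not overlap, so with 12 genes each these counts are no result about either class. The log2 fold change was above 0 for 40 of the 52 Wnt genes (76.9%), against 47.7% of all genes tested, and its median was 0.20, against -0.02. With edgeR's quasi-likelihood test, 0 of the 52 genes and 0 of the 18927 (0.0% in each direction) passed an adjusted p of 0.05. At an unadjusted p under 0.05 there were 7 Wnt genes higher (13.5%; 4.38% of all genes) and 0 lower (3.52% of all genes). Levels did not overlap between the groups for 7 Wnt genes higher (8.95% of all genes) and 3 lower (7.2% of all genes), which is 19.2% of the Wnt genes in either direction and close to the 16.1% of all genes. The DESeq2 Wald test, the alternative test, called 2 Wnt genes, Fzd1 and Sfrp1, among 34 genes called higher (0.18% of all genes) and 28 called lower (0.148%).

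As an alternative, the trend of the fold changes with transcript length was removed. There, 34 of the 52 Wnt genes lay above 0 and 5 were higher at an unadjusted p under 0.05 (3.23% of all genes), with 2 lower (3.55%). Without wild-type replicate 3 there were 34 above 0, with 4 higher (4.45% of all genes) and 1 lower (4.92%) at an unadjusted p under 0.05. Without replicate 3 of both groups there were 33 above 0, with 5 higher (3.94% of all genes) and 1 lower (4.38%). The median over all genes in these 3 settings was -0.0225, 0.00654 and -0.0042, against 0.09, 0.21 and 0.18 for the Wnt genes. The share of all genes above 0 in these settings is not given here.

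**Figure D1:**
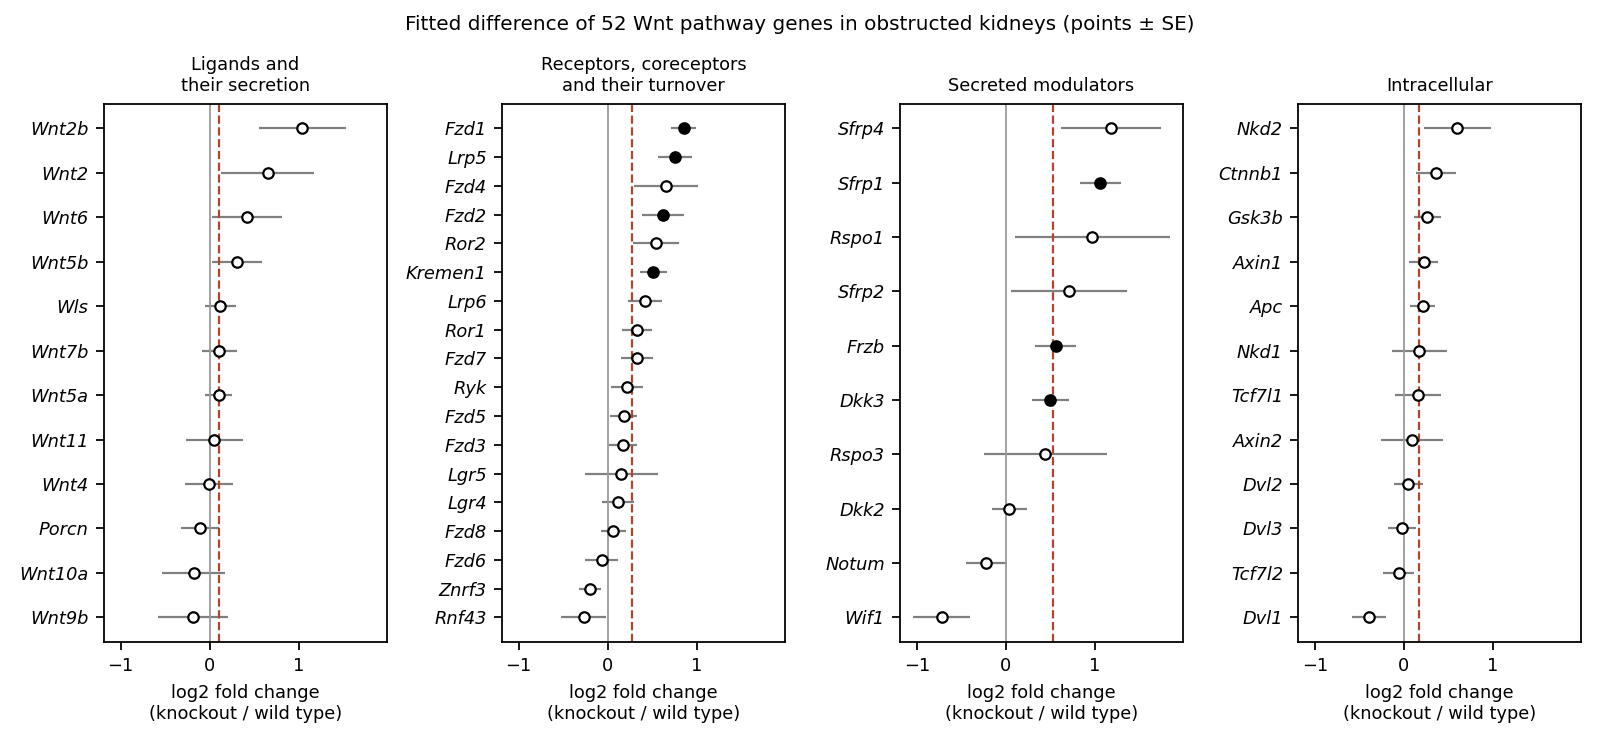
Fitted log2 fold change (knockout over wild type, horizontal axis) with its SE for each of the 52 Wnt genes, in 4 panels by class. Filled points have an unadjusted edgeR p under 0.05, the dashed red line is the median of the class, and the medians lie at 0.10 for ligands, 0.27 for receptors, 0.53 for secreted modulators and 0.16 for intracellular genes.

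Among the receptors, Fzd1 was the Wnt gene with the smallest p. Fzd1 (chromosome 5, 4753839 to 4758216, GRCm38.p6) had 139, 156 and 125 CPM in the knockout and 76.9, 84.8 and 71.8 CPM in the wild type. The lowest knockout library lay well above the highest wild-type library. The log2 fold change was 0.85 ± 0.14 (SE, n = 3 per group), with an edgeR adjusted p of 0.627 and a DESeq2 adjusted p of 0.00148. Over all alternatives its adjusted p ranged from 0.00148 to 0.971 while its log2 fold change stayed between 0.76 and 0.92. An exact permutation test (two-sided) on the log2 CPM of Fzd1 returned p = 0.1, which 3 against 3 libraries cannot go below. The fibroblast marker sum averaged 5108 CPM in the knockout and 3030 CPM in the wild type with overlapping groups, and the macrophage marker sum was without overlap like Fzd1. The part of either list in the Fzd1 result was not tested.

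The other Frizzled receptors differed less. Fzd2, which like Fzd1 is encoded by a gene of one coding exon, had 15.9, 17.3 and 26.5 CPM in the knockout and 13.5, 14.9 and 10.4 CPM in the wild type. These levels did not overlap either, but the highest of them was knockout replicate 3, and the log2 fold change of 0.62 ± 0.24 (edgeR adjusted p = 0.627) was 0.36 without that library and 0.23 without replicate 3 of both groups. Fzd4, a receptor with a role in vessels, had 69.4, 71.3 and 50.7 CPM in the knockout and 19.4, 57.0 and 45.5 CPM in the wild type. The groups overlapped, wild-type replicate 1 was far below the other libraries, and the log2 fold change of 0.65 ± 0.36 was 0.31 without it and 0.98 without wild-type replicate 2. Fzd4 overlaps the gene Tmem135, at 81.6 CPM, whose reads may be counted with it. Fzd7 and Fzd5 stood at 0.33 ± 0.18 and 0.18 ± 0.15, Fzd3 at 0.17 ± 0.16, Fzd8 at 0.06 ± 0.14 and Fzd6 at -0.07 ± 0.18, all with overlapping groups. With the length trend removed, Fzd3, whose longest transcript is 12734 nt, was at -0.04.

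Levels of different genes were compared per kilobase of the longest annotated transcript. On that scale Fzd1 was the most abundant Frizzled, at 33.3 CPM per kb in the knockout and 18.5 CPM per kb in the wild type, ahead of Fzd6 at 12.7 and 13.3 CPM per kb. The level of Fzd1 made up 41.2%, 44.7% and 38.0% of the summed level of the 8 Frizzled genes in the knockout, and 33.7%, 30.9% and 31.1% in the wild type. The sum of the 7 others was 47.3, 46.0 and 48.5 CPM per kb in the knockout and 36.1, 45.2 and 37.9 CPM per kb in the wild type. These groups only just failed to overlap, at 46.0 against 45.2 CPM per kb. The share of Fzd1 was examined because Fzd1 led the comparison, so it is given with no test.

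Lrp5, the canonical coreceptor (chromosome 19, 3584825 to 3686585), had 64.0, 77.6 and 71.2 CPM in the knockout and 32.7, 52.4 and 41.2 CPM in the wild type. The groups did not overlap, and the log2 fold change was 0.75 ± 0.19 (edgeR adjusted p = 0.627, DESeq2 adjusted p = 0.142). It was 0.58 with the length trend removed and 0.60 without wild-type replicate 1. Lrp6, the closest relative of Lrp5, had 207, 206 and 173 CPM in the knockout and 111, 168 and 159 CPM in the wild type. Its 3 knockout libraries also lay above all wild-type libraries, but its log2 fold change of 0.42 ± 0.19 was 0.23 with the length trend removed and 0.26 without wild-type replicate 1. The noncanonical coreceptors Ror2, Ror1 and Ryk stood above 0. The receptor tyrosine kinase-like Ror2 was at 0.54 ± 0.26, its relative Ror1 at 0.33 ± 0.17 and Ryk at 0.22 ± 0.18, each with overlapping groups. Without replicate 3 of both groups Ror2 was at 0.24.

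Genes that set how long receptors stay at the surface went different ways. Kremen1, a transmembrane protein that takes Lrp5 and Lrp6 off the surface together with Dickkopf proteins, had 64.4, 76.5 and 70.9 CPM in the knockout and 52.6, 55.6 and 40.6 CPM in the wild type. The groups did not overlap, at a log2 fold change of 0.51 ± 0.15 (edgeR adjusted p = 0.627), which was 0.38 without replicate 3 of both groups. Znrf3, a ubiquitin ligase that removes Frizzled receptors, had 24.2, 23.9 and 25.2 CPM in the knockout and 27.1, 29.7 and 27.1 CPM in the wild type. It was one of the 3 Wnt genes with all knockout libraries below all wild-type libraries, at -0.20 ± 0.12. Rnf43, the related ligase, was at -0.27 ± 0.25 with overlapping groups, at 10.0, 8.74 and 7.63 CPM in the knockout and 11.6, 12.7 and 7.47 CPM in the wild type. Kremen1 and Znrf3 are neighbours on chromosome 11, 14.6 kb apart, and their differences had opposite signs. Lgr4, a receptor for R-spondins, was abundant at 31.5 CPM per kb in the knockout and 29.1 CPM per kb in the wild type and stood at 0.11 ± 0.18. Its relative Lgr5, a stem cell marker in other epithelia, was scarce, at 0.798, 1.25 and 1.11 CPM in the knockout and 0.706, 1.48 and 0.659 CPM in the wild type.

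**Figure D2:**
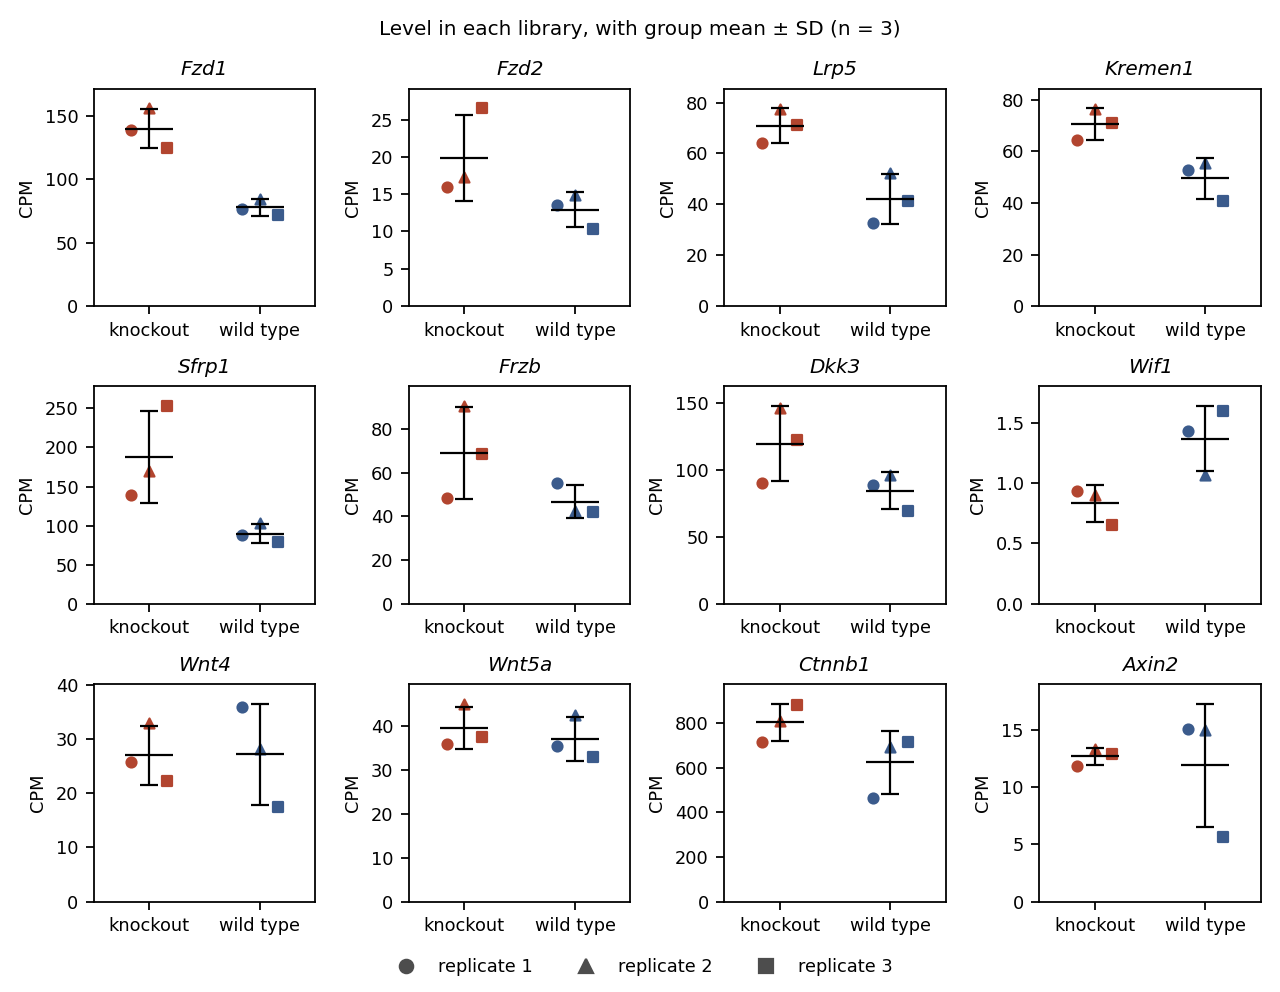
Level in CPM (vertical axis, from 0) of 12 Wnt genes in each library, with knockout on the left and wild type on the right of each panel. Symbols mark the replicate number and black bars the group mean ± SD (n = 3 each). Fzd1, Fzd2, Lrp5, Kremen1 and Sfrp1 lie higher in every knockout library, Wif1 lies lower, and the other 6 overlap.

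Of the secreted modulators, which bind Wnt ligands or their receptors outside the cell, 8 of 10 stood above 0, and the median of their log2 fold changes was 0.53. Sfrp1, a secreted Frizzled-related protein (chromosome 8, 23411383 to 23449632), had 139, 170.1 and 253 CPM in the knockout and 87.8, 103 and 78.8 CPM in the wild type. Every knockout library exceeded every wild-type library. The log2 fold change was 1.06 ± 0.23 (edgeR adjusted p = 0.627, DESeq2 adjusted p = 0.0240), and over all alternatives the adjusted p ran from 0.0240 to 0.971. The DESeq2 call was lost when the replicate number was added as a block, at an adjusted p of 0.0906. Knockout replicate 3 was the highest, and without replicate 3 of both groups the log2 fold change was 0.70. Per kilobase, Sfrp1 was at 31.7, 38.9 and 57.8 CPM per kb in the knockout and averaged 20.5 CPM per kb in the wild type. Dkk3 was at 26.9, 43.5 and 36.4 CPM per kb in the knockout and averaged 25.1 CPM per kb in the wild type, and Dkk3 was above Sfrp1 in all 3 wild-type libraries and in 1 of the 3 knockout libraries.

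Dkk3, the divergent Dickkopf family member whose 8mer match is printed above, had 90.2, 146 and 122 CPM in the knockout and 88.6, 95.7 and 68.9 CPM in the wild type. The groups overlapped through knockout replicate 1, and the log2 fold change was 0.50 ± 0.21 (edgeR adjusted p = 0.627). It was 0.33 without knockout replicate 2 and 0.36 without replicate 3 of both groups. Frzb, another secreted Frizzled-related protein, had 48.2, 90.4 and 68.3 CPM in the knockout and 55.4, 42.6 and 42.0 CPM in the wild type, at 0.56 ± 0.23 with overlap; without knockout replicate 2 it was 0.32. Dkk2, an antagonist of Lrp5 and Lrp6 with both an 8mer and a 7mer match, had 29.1, 42.6 and 26.4 CPM in the knockout and 29.5, 31.7 and 34.5 CPM in the wild type. Its log2 fold change of 0.04 ± 0.20 had a 95% interval of -0.42 to 0.49.

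Wif1, a secreted inhibitor that binds Wnt ligands, was scarce and lay lower in every knockout library, at 0.935, 0.902 and 0.655 CPM, against 1.43, 1.07 and 1.60 CPM in the wild type. Its log2 fold change was -0.72 ± 0.32 (edgeR adjusted p = 0.627), and -0.44 without replicate 3 of both groups. Notum, an enzyme that strips the lipid from Wnt ligands, had 7.23, 5.58 and 5.12 CPM in the knockout and 6.07, 7.18 and 7.68 CPM in the wild type, at -0.22 ± 0.23 with overlap.

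The class median of the secreted modulators rested on 1 library. Sfrp2 had 4.24, 3.76 and 20.7 CPM in the knockout and 7.83, 5.08 and 4.70 CPM in the wild type. Sfrp4 had 1.94, 3.69 and 9.73 CPM in the knockout and 2.35, 2.73 and 1.68 CPM in the wild type. The R-spondins, which strengthen Wnt signalling, showed the same high library, with Rspo1 at 2.12, 0.537 and 6.93 CPM in the knockout and 1.88, 2.47 and 0.553 CPM in the wild type. Rspo3 had 2.99, 2.30 and 9.16 CPM in the knockout and 2.49, 6.74 and 1.45 CPM in the wild type. In these 4 genes knockout replicate 3, the library with the highest fibroblast marker sum, was the highest of all 6 libraries, and the other knockout libraries lay at 3.76 to 4.24 CPM for Sfrp2, 1.94 to 3.69 CPM for Sfrp4, 0.537 to 2.12 CPM for Rspo1 and 2.30 to 2.99 CPM for Rspo3. Their biological coefficients of variation, the fitted spread between replicates, were 54.6%, 48.3%, 71.2% and 58.1%, against a median of 22.9% over all genes tested. Without knockout replicate 3 the class median was 0.02, and without replicate 3 of both groups it was 0.05, where Sfrp2, Rspo1 and Rspo3 stood at -0.69, -0.71 and -0.80. With limma-voom, which gives libraries quality weights, they stood at -0.09, -0.88 and -0.77.

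**Figure D3:**
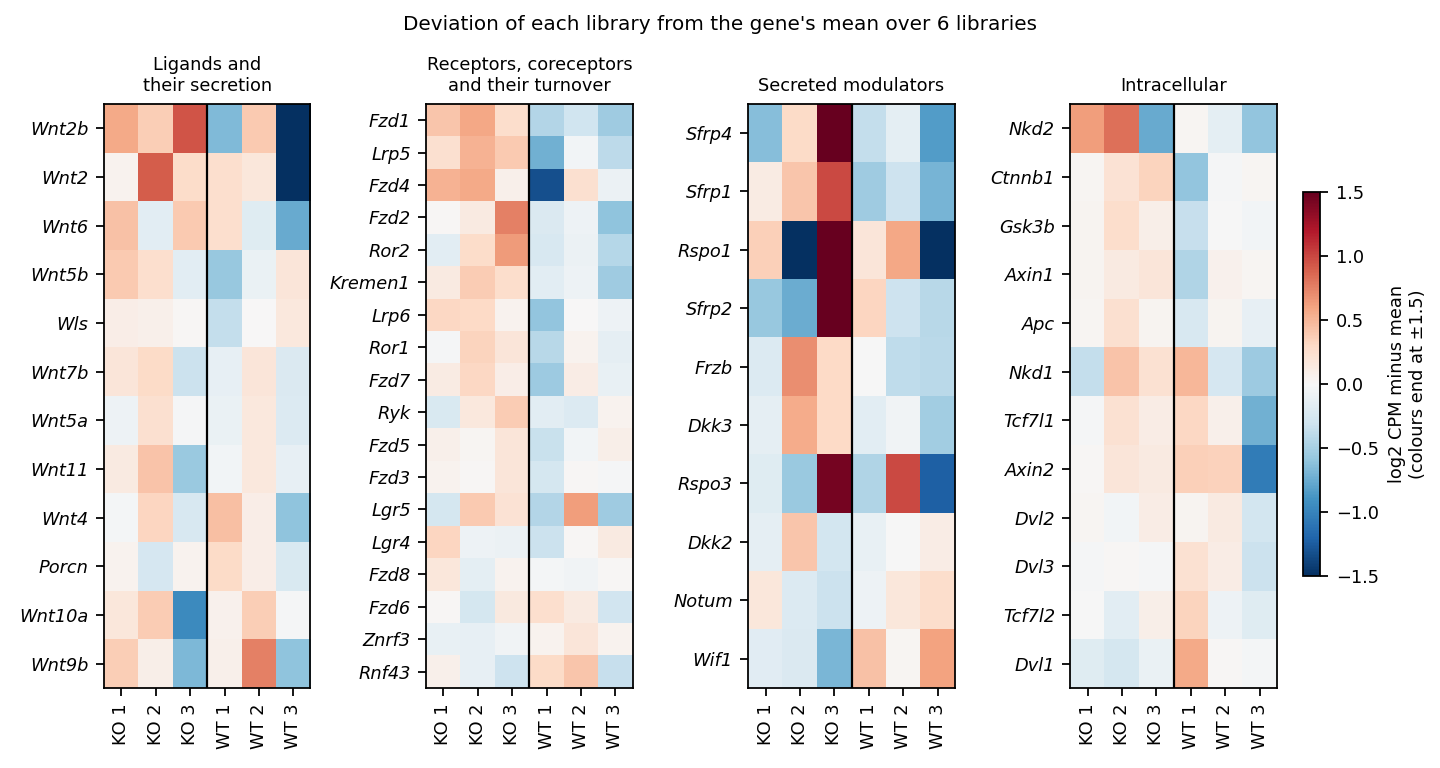
Log2 CPM of each Wnt gene in each library minus the gene's mean over the 6 libraries, with 3 knockout columns left of the line and 3 wild-type columns right of it (KO, knockout; WT, wild type). Red is above and blue below the mean. Knockout replicate 3 is darkest red for Sfrp4, Rspo1, Sfrp2 and Rspo3, while Fzd1 is red in all 3 knockout columns and blue in all 3 wild-type columns.

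Of the ligands and secretion factors, 8 of 12 stood above 0, and the median of their log2 fold changes was 0.10. The groups overlapped in all 12, where 16.1% of all genes did not overlap. Wnt7b, Wnt4 and Wnt5a were the most abundant ligands and made up 66.6% to 71.9% of the summed level per kilobase of the 10 ligands in the knockout and 67.9% to 73.3% in the wild type. Wnt4, which drives the conversion of mesenchyme to epithelium in the forming nephron, had 25.8, 32.9 and 22.3 CPM in the knockout and 36.0, 28.2 and 17.4 CPM in the wild type. The wild-type libraries spanned the knockout range, and the log2 fold change was -0.01 ± 0.27 with a 95% interval of -0.64 to 0.62. Wnt5a, the main noncanonical ligand, had 36.1, 45.2 and 37.6 CPM in the knockout and 35.5, 42.7 and 33.0 CPM in the wild type, at 0.10 ± 0.15. Its 95% interval was -0.26 to 0.45. Wnt7b, a collecting duct ligand of the developing medulla, stood at 0.11 ± 0.20, with 29.5, 31.6 and 20.8 CPM in the knockout and 23.9, 29.5 and 22.3 CPM in the wild type. Wnt9b, the ureteric bud signal that starts nephron formation, had 10.4, 8.59 and 5.06 CPM in the knockout and 8.54, 13.6 and 5.30 CPM in the wild type, at -0.19 ± 0.39.

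The ligands with the largest fitted differences were scarce ones. Wnt2b had 2.49, 2.17 and 3.22 CPM in the knockout and 1.06, 2.20 and 0.553 CPM in the wild type, a log2 fold change of 1.04 ± 0.49 (edgeR adjusted p = 0.627) that was 0.69 without wild-type replicate 3 and 1.71 without wild-type replicate 2. Wnt2b overlaps the gene St7l, whose level was 26.0 CPM, so reads from St7l may be counted with it. Wnt2 had 0.981, 1.78 and 1.15 CPM in the knockout and 1.13, 1.07 and 0.298 CPM in the wild type, at 0.65 ± 0.52, and 0.25 without wild-type replicate 3. For both genes wild-type replicate 3 was the lowest library. Wnt5b, a noncanonical ligand, had 6.68, 6.10 and 4.59 CPM in the knockout and 3.43, 4.77 and 5.79 CPM in the wild type, at 0.31 ± 0.28. It was at 0.13 without wild-type replicate 1 and at 0.64 without replicate 3 of both groups, and it overlaps Fbxl14, at 39.3 CPM. Wnt6, Wnt11 and Wnt10a stood at 0.42 ± 0.39, 0.05 ± 0.32 and -0.18 ± 0.35. The secretion factors also overlapped between the groups. Wls, the carrier that takes Wnt ligands to the cell surface, averaged 316 ± 9.06 CPM in the knockout and 291 ± 50.9 CPM in the wild type (SD, n = 3 each), and Porcn, the enzyme that attaches the lipid, averaged 8.53 ± 0.989 CPM in the knockout and 9.20 ± 1.57 CPM in the wild type.

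**Figure D4:**
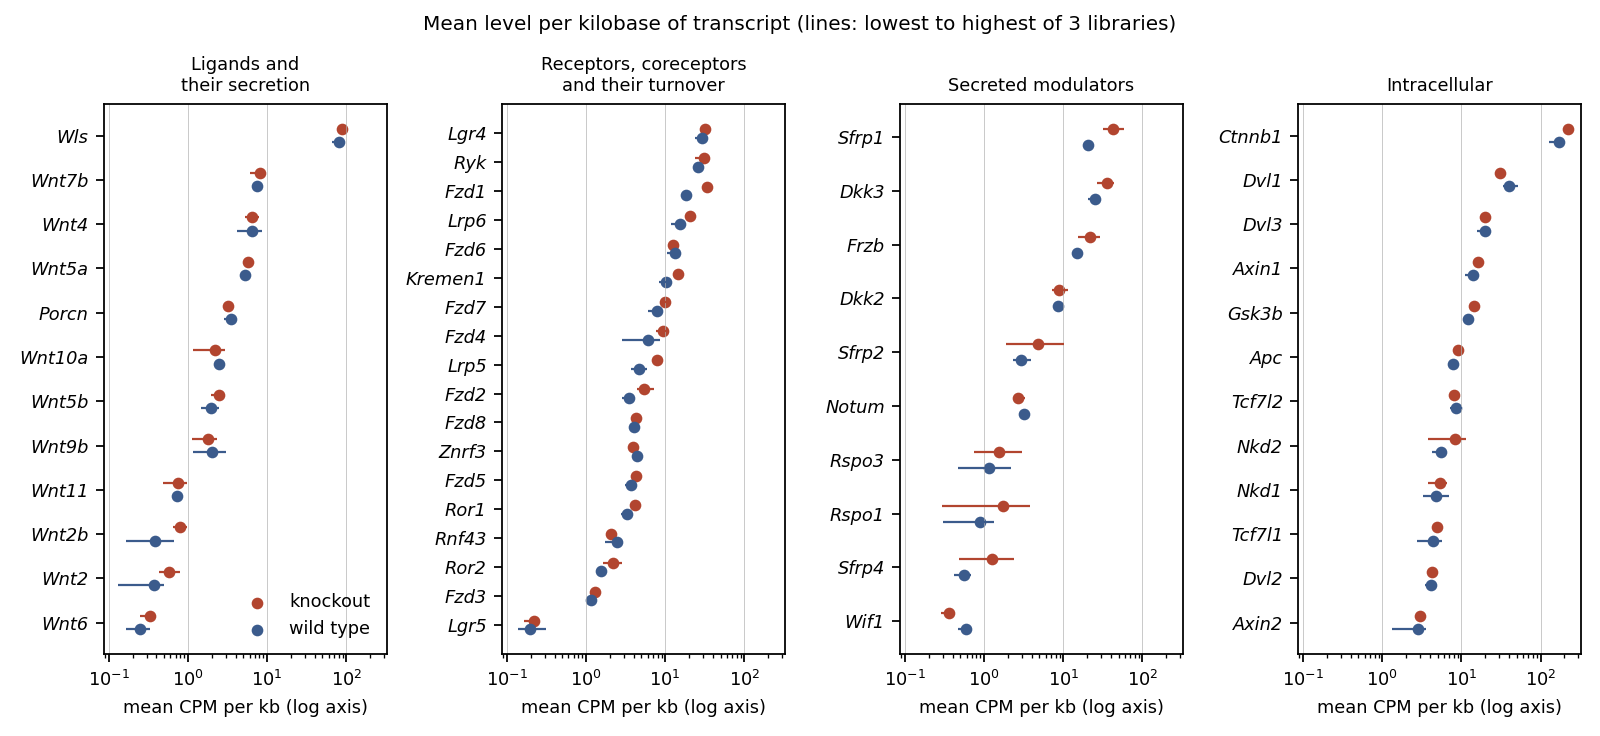
Mean level per kilobase of the longest transcript (horizontal log axis, CPM per kb) of each Wnt gene, knockout in red above wild type in blue, with lines from the lowest to the highest of 3 libraries. Ctnnb1 is the most abundant, at 222 CPM per kb in the knockout and 172 CPM per kb in the wild type, and the ligands other than Wnt7b, Wnt4 and Wnt5a lie below 3 CPM per kb.

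Of the intracellular genes, 9 of 12 stood above 0. The median of their log2 fold changes was 0.16, and it was -0.04 without wild-type replicate 3 and -0.08 without replicate 3 of both groups. Ctnnb1, which encodes beta-catenin, had 716, 812 and 883 CPM in the knockout and 463, 693 and 717 CPM in the wild type. The groups just overlapped, and the log2 fold change of 0.36 ± 0.22 (edgeR adjusted p = 0.652) was 0.19 without wild-type replicate 1, the lowest library. Gsk3b, the kinase that marks beta-catenin for breakdown, had 113, 132 and 117 CPM in the knockout and 86.2, 109 and 107 CPM in the wild type. Its groups did not overlap, but the log2 fold change of 0.26 ± 0.15 was 0.08 with the length trend removed. The scaffolds Apc and Axin1 stood at 0.21 ± 0.14 and 0.22 ± 0.16, and Apc, with a longest transcript of 12811 nt, at -0.01 with the length trend removed. Dvl1, a Dishevelled protein that relays the signal from Frizzled, lay lower in every knockout library, at 146, 138 and 155 CPM, against 245, 168 and 162 CPM in the wild type. Its log2 fold change of -0.39 ± 0.19 (edgeR adjusted p = 0.627) was -0.17 without wild-type replicate 1. Dvl2 and Dvl3 were at 0.05 ± 0.16 and -0.02 ± 0.16, and the nuclear factors Tcf7l1 and Tcf7l2 at 0.16 ± 0.26 and -0.06 ± 0.17.

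Wild-type replicate 1 was the lowest of the 6 libraries for Lrp5, Lrp6, Fzd4, Fzd7, Ctnnb1 and Gsk3b and the highest for Dvl1. Without it, the median of the receptor class was 0.19, against 0.27 with all libraries and 0.47 without wild-type replicate 2.

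Several Wnt genes are themselves switched on by beta-catenin and are used to read the activity of the canonical branch. Axin2, the standard feedback target, had 11.9, 13.4 and 12.9 CPM in the knockout and 15.1, 15.0 and 5.70 CPM in the wild type. All knockout libraries lay between the wild-type values, and the log2 fold change was 0.09 ± 0.35, with a 95% interval of -0.71 to 0.90. It was -0.24 without wild-type replicate 3, where both remaining wild-type libraries exceeded the knockout. Nkd1, which binds Dishevelled and restrains it, had 15.6, 26.8 and 23.3 CPM in the knockout and 28.2, 16.7 and 13.6 CPM in the wild type, at 0.17 ± 0.31. Nkd2, its relative, was at 0.60 ± 0.38, with 39.8, 45.6 and 15.2 CPM in the knockout and 26.3, 23.2 and 17.1 CPM in the wild type. It was at 0.94 without knockout replicate 3 and at 0.31 without knockout replicate 2. The feedback genes Axin2, Nkd1, Znrf3, Rnf43, Notum and Lgr5 gave log2 fold changes on both sides of 0. Of these, 0 had an unadjusted p under 0.05, where 7.9% of all genes did, so the count is no result about these genes. Nkd2, chosen after its values were seen, is not counted with them.

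The rest of the pathway was read from 3 further lists of genes. Of 32 other ligands, receptors and extracellular regulators, 21 passed the filter on low counts, and Wnt3a and Wnt8a had 0 counts in every library. The 21 had a median log2 fold change of 0.35, with 18 above 0, and 3 were higher and 0 lower at an unadjusted p under 0.05 (4.38% and 3.52% of all genes). Ptk7, a coreceptor of planar cell polarity, had 53.6, 65.8 and 72.2 CPM in the knockout and 49.1, 44.8 and 30.0 CPM in the wild type, at 0.63 ± 0.21. Sfrp5, a relative of Sfrp1, had 6.61, 5.20 and 5.82 CPM in the knockout and 1.98, 4.31 and 3.57 CPM in the wild type, at 0.84 ± 0.32. The ligand Wnt16 was at 0.74 ± 0.31, also without overlap, and Adgra2, a cofactor of Wnt7 signalling in vessels, at 0.55 ± 0.27.

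All 41 other intracellular components were tested, with a median of 0.18 and 35 above 0. Of these, 3 were higher and 0 lower at an unadjusted p under 0.05, which is 7.32% of the list, against 4.38% higher and 3.52% lower among all genes. Prickle2, a planar cell polarity protein, had 14.3, 19.3 and 21.4 CPM in the knockout and 9.67, 12.7 and 11.3 CPM in the wild type, at 0.71 ± 0.21. Celsr1, a cadherin of the same system, was at 0.43 ± 0.15 (0.22 with the length trend removed), the ADP-ribosylase Tnks, which destabilises Axin, at 0.90 ± 0.38 and the corepressor Tle3 at 0.30 ± 0.13. The nuclear factors Tcf7 and Lef1 stood at 0.26 ± 0.16 and 0.00 ± 0.44.

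Among 20 textbook beta-catenin target genes the median was 0.16, with 14 above 0 and 6 below. At an unadjusted p under 0.05, 0 were higher and 1 was lower. That is 5.0% of the list, near the share of all genes (4.38% higher and 3.52% lower), so the count says nothing particular of these genes. The lower one was Tnfrsf19, a receptor of the TNF family, with 1.62, 1.50 and 1.37 CPM in the knockout and 2.92, 3.46 and 1.74 CPM in the wild type, at -0.85 ± 0.33. Sp5, a direct target of beta-catenin, was also below the wild type in every library, at 6.32, 4.51 and 5.58 CPM in the knockout and 7.90, 6.57 and 9.30 CPM in the wild type, a log2 fold change of -0.53 ± 0.24. Myc stood at -0.43 ± 0.20 with overlapping groups. Nrcam, at 0.39 ± 0.24, was above the wild type in every knockout library. Groups without overlap were thus found for 1 gene higher (8.95% of all genes) and 2 lower (7.2%). That is 15.0% of the list, near the 16.1% of all genes, so this count is no result about the list. Over these 3 lists 0 genes passed the adjusted threshold of 0.05 with edgeR, and 0 passed with DESeq2. The lowest edgeR adjusted p in each of the 3 lists was 0.627.

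**Figure D5:**
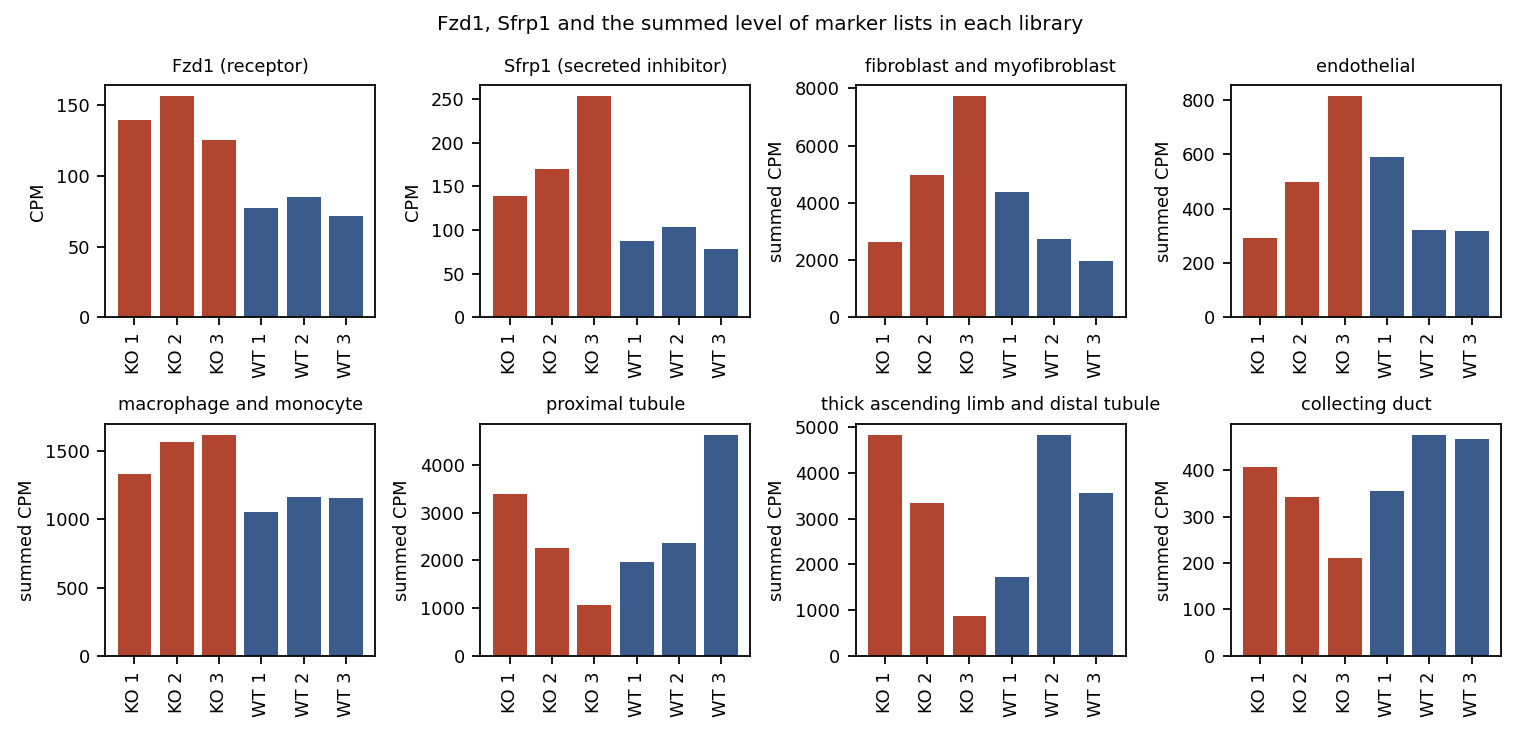
Level of Fzd1 and Sfrp1 (CPM) and summed level of 6 marker lists (summed CPM) in each library, all axes from 0, knockout bars in red left of wild-type bars in blue. Fzd1, Sfrp1 and the macrophage markers separate the groups, and the other 5 marker lists drawn here overlap, with the fibroblast list running from 2627 to 7718 CPM in the knockout and from 1984 to 4366 CPM in the wild type.

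Sfrp1 and the fibroblast marker sum were both highest in replicate 3 and lowest in replicate 1 of the knockout, and both had the higher mean in the knockout. In the wild type both were lowest in replicate 3, but Sfrp1 was highest in replicate 2 and the fibroblast sum in replicate 1. Wild-type replicate 1 had a fibroblast sum of 4366 CPM with Sfrp1 at 87.8 CPM, against 2627 CPM and 139 CPM in knockout replicate 1. All 12 markers of the fibroblast list had a log2 fold change above 0, where 47.7% of all genes did. For 1 of them, Dpt, a matrix protein of fibroblasts, the groups did not overlap. That is 8.33% of the list, near the 8.95% of all genes that were higher without overlap, so this count says nothing particular of the list. All 6 endothelial markers stood above 0, and their sum was 292, 497 and 813 CPM in the knockout and 589, 323 and 317 CPM in the wild type. Below 0 were all 8 collecting duct markers, all 6 thick ascending limb and distal tubule markers and 5 of 6 proximal tubule markers. Among all genes 52.3% were below 0. Of these tubule markers DESeq2 called 1, the collecting duct gene Fxyd4 (adjusted p = 0.0136), at -0.76 ± 0.15 without overlap. The sum of the 6 skeletal muscle markers, which should be near 0 in kidney, also separated the groups. It was 1.03, 0.923 and 1.11 CPM in the knockout and 5.95, 5.58 and 5.40 CPM in the wild type. DESeq2 called 5 of the 6 lower, where it called 0.148% of all genes lower. The part of cell composition in the Wnt results was not tested.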

How the data were processed

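Per the labels' protocols, RNA came from a spin-column kit and was turned into mRNA-seq libraries. The counts deposited by the authors are whole numbers for each gene symbol, not normalized. The builds GRCm38 and mm10 are named per the submitters' processing notes. Which aligner and counting program were used, and whether strand was, is not given in the sources used here, so overlapping genes may share counts.

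Genes were filtered with filterByExpr, scaled by TMM and compared with edgeR 4.0.16 (quasi-likelihood F test, robust fit, group only, Benjamini-Hochberg over 18927 genes) in R 4.3.3. The common biological coefficient of variation was 26.9%. DESeq2 1.42.0 and limma 3.58.1 (voom) were alternatives. All were also run on simulated data, with an outcome that is not given here. Each SE is the absolute log2 fold change over the root of F, and intervals are 95%. Of the tested genes, 89.7% had a transcript length in GENCODE M21. Their trend was removed with a loess curve per library passed as an offset.

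The members and lists were chosen with earlier results of these data known. Values in every library were given for the 3 genes per class with the smallest p and at least 1 CPM, for genes without overlap and an absolute log2 fold change of at least 0.5, and for Axin2, Nkd1, Notum, Znrf3, Rnf43, Lgr5, Wnt4, Wnt9b, Wnt5a and Ctnnb1. Of each pathway list, up to 4 genes were named, plus Lef1 and Tcf7. Others, such as Fzd4, Lrp6, Dkk2, Sfrp2, Sfrp4, Rspo1, Rspo3, Wnt7b and Nkd2, were chosen after their values were seen. No library copied another: between any pair, chi-square over its degrees of freedom was at least 31.1.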

Additional observations from a re-analysis of the deposited data

How the results depend on the processing

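With edgeR and all libraries 0 genes were called. DESeq2 called 34 genes higher and 28 lower, limma-voom 1 and 2, and the fit with no filter 1 and 1. The replicate block called 1 higher, alone and with the length trend removed. Leaving out single libraries gave 0 to 1 higher and 0 lower, and leaving out replicate 3 of both groups 1 and 0. Of the Wnt genes DESeq2 called 2, and 1 (Fzd1, with Sfrp1 lost) with the replicate block added after the data were seen, where it called 27 genes higher and 19 lower in all. Every other setting called 0 Wnt genes. Same-numbered libraries did not deviate together (correlations of -0.282, 0.179 and -0.288), so the numbers were not taken to pair the libraries; with the block, 4 Wnt genes were higher at an unadjusted p under 0.05 (3.77% of all genes), against 7 without it (4.38%).

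Class medians stayed within the spread between libraries except for these. With single libraries left out, the receptor median ranged from 0.19 to 0.47, that of the secreted modulators from 0.02 to 0.73 and that of the intracellular genes from -0.04 to 0.26. Without replicate 3 of both groups the secreted modulators were at 0.05 and the intracellular genes at -0.08. With limma-voom the secreted modulators were at 0.05. The cause was not tested.

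Signs turned for Sfrp2, Rspo1 and Rspo3, as given with their levels, and for genes near 0. With limma-voom Axin2 was at -0.04, Lgr5 at -0.19 and Wnt4 at 0.11. With single libraries left out Axin2 ranged from -0.24 to 0.29, Lgr5 from -0.05 to 0.63, Nkd1 from -0.03 to 0.53, Wnt4 from -0.25 to 0.24, Wnt5a from -0.01 to 0.22 and Wnt9b from -0.47 to 0.22. Without replicate 3 of both groups Axin2 was at -0.25, Lgr5 at -0.10 and Nkd1 at -0.08. Wnt4 was at 0.03 with the replicate block and at 0.04 with DESeq2 and the block. Removing the length trend put Wnt5a at -0.05, or at -0.06 with the block as well. Depth limits scarce genes: Wnt6 had 16 to 38 counts a library and Wif1 33 to 75.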

Other observations

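Wnt6 and Wnt10a lie next to each other on chromosome 1, 6.7 kb apart, and differed in level by library. Wnt10a had 6.25, 7.21 and 2.86 CPM in the knockout and 5.79, 7.20 and 5.47 CPM in the wild type, so knockout replicate 3 was its lowest library. Wnt6 had 0.775, 0.515 and 0.755 CPM in the knockout and 0.682, 0.506 and 0.340 CPM in the wild type, and knockout replicate 3 was not its lowest.

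RefSeq promoters (250 bases before to 50 after a start, GRCm38.p6) were found for 32 of the 52 Wnt genes. The TCF/LEF letters CTTTGAT or CTTTGAA stood on either strand in 2 of the 38 promoters of these genes (5.26%), 1 of Wnt11 and 1 of Wnt5b, and in 2842 of 32851 promoters in all (8.65%). A lack of these letters in this window says nothing of binding elsewhere.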
